A study of Mus musculus with 18 samples.

Results

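The dopamine receptor family of the mouse has 5 genes, Drd1 to Drd5, and all of them were represented on the arrays by 7 probes, out of 44505 probes tested and 17274 genes named in the probe table of the platform. The members were taken as every probe carrying one of these 5 gene symbols. Drd1 and Drd4 had 2 probes each, and Drd2, Drd3 and Drd5 had 1. RNA came from the nucleus accumbens (NAc), in the ventral striatum, and from the ventral tegmental area (VTA), in the midbrain, of male C57BL/6J mice aged 10.5 weeks. The mice were susceptible or unsusceptible after social defeat, a stress in which a mouse is exposed to an aggressor, or were controls that had not been defeated. Each structure had 3 susceptible, 3 unsusceptible and 3 control samples, and each sample was tissue pooled from 4 mice and measured on 1 array, 18 arrays in all. The design text adds that the replicates of a condition had comparable avoidance scores. No genetic change, drug or transgene is named for any group.

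Dopamine receptors are receptors of the cell surface that signal through G proteins. Drd1 and Drd5 encode the D1-like receptors, which raise cyclic AMP through stimulatory G proteins. Drd2, Drd3 and Drd4 encode the D2-like receptors, which lower cyclic AMP through inhibitory G proteins and open Girk potassium channels. In the striatum the D1 receptor is typical of the medium spiny neurons of the direct pathway and the D2 receptor of those of the indirect pathway. The D2 receptor is also carried by the dopamine neurons of the midbrain, where it works as an autoreceptor.

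The 250 bases before the annotated start of transcription are shown for Drd1 and Drd2, the genes with the largest differences between the structures, and for Drd3, a gene whose probe stayed dim in both. The sequences are from RefSeq (mouse assembly GRCm38.p6), where all 5 receptor genes were matched and Drd1 has 2 annotated starts. Capitals mark the GC box, searched as GGGCGG on either strand (CCGCCC on the printed one). All are written 5′ to 3′ along the gene.
Drd1, first start, chr13:54055659-54055908, minus strand: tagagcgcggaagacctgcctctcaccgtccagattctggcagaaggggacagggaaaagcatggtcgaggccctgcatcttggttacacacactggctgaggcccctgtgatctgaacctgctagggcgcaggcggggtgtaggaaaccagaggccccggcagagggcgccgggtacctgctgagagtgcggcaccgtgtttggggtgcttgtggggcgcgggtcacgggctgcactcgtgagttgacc
Drd1, second start, chr13:54054781-54055030, minus strand: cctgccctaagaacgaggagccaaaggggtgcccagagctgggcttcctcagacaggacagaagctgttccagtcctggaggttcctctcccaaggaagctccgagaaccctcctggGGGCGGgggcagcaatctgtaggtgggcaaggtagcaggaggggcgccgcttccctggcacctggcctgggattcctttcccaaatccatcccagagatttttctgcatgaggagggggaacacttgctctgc
Drd2, chr9:49340153-49340402, plus strand: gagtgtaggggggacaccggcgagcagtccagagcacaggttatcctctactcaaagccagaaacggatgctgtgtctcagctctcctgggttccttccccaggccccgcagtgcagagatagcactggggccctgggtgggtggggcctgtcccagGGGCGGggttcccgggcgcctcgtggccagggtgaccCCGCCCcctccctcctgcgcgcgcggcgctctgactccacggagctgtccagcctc
Drd3, chr16:43761971-43762220, plus strand: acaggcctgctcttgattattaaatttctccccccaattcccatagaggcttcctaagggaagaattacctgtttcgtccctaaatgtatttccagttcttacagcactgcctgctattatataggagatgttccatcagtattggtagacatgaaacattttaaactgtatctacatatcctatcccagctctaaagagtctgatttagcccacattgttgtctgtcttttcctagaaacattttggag

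The Drd2 window held 2 GC boxes and 68.8% G and C. The window at the first Drd1 start held no GC box at 64.0% G and C, and that at the second start held 1 at 60.8%. The Drd3 window held no GC box and 39.2% G and C. The windows of Drd4 and Drd5, not printed, held 3 and 2 GC boxes, with 56.8% and 71.2% G and C. Among 32851 windows of the same length, 32.7% held a GC box and the median content of G and C was 52.4%. The letters TATAAA, searched on both strands, were in none of the 6 receptor windows and in 12.4% of all windows.

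Array values were intensities, taken to log2 and quantile normalized, and the level of the median probe was 7.39 log2 units. Median scanner intensities of the 18 arrays lay between 148.3 and 253.1. The first principal component held 64.4% of the variance and separated NAc arrays from VTA arrays. Against the structure labels, all 9 measured markers of medium spiny neurons in common were higher in the NAc, and all 11 measured dopamine neuron markers were lower there. Of 6 direct pathway markers, 4 were higher in the NAc, 1 was lower and 1 did not pass limma's adjusted p threshold of 0.05. Of 3 measured indirect pathway markers, 2 were higher and 1 did not pass. Over all probes 28.0% passed in either direction. Apart from the rest stood 3 arrays. NAc unsusceptible pool 3 was the brightest, with an upper quartile of 833.2, against 287.3 to 386 in the remaining arrays. The upper quartile of NAc control pool 3, 287.3, was the lowest of all, though VTA susceptible pool 2 was close at 296.5. The median of NAc control pool 3, 166.2, and its score on the first component, -38.7, lay within the range of the other NAc arrays. On the first component VTA unsusceptible pool 3 had a score of 26.6, against 36.4 to 41.9 for the remaining VTA pools.

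**Figure D1:**
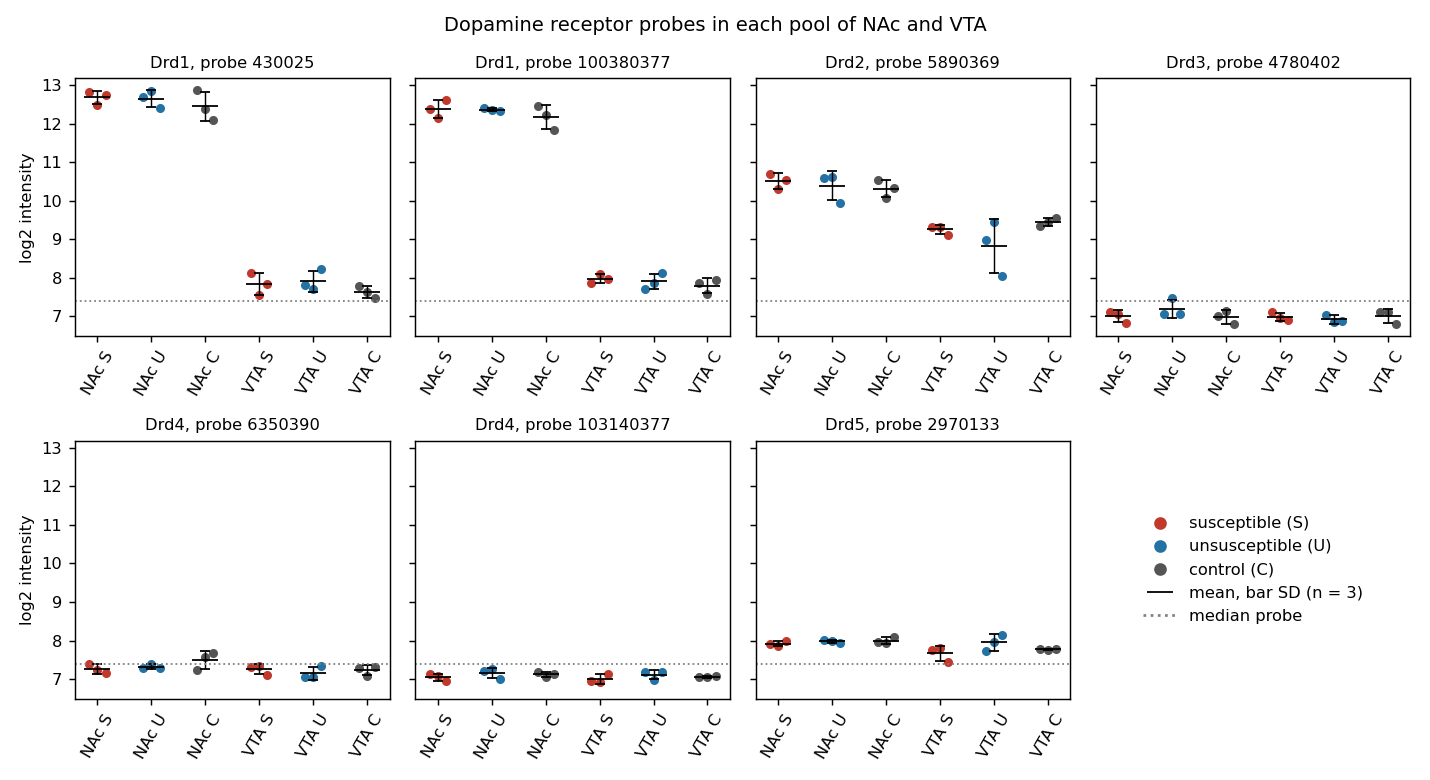
Log2 intensity of the 7 receptor probes (vertical axis) in each pool of the 6 groups (horizontal axis: NAc and VTA with S for susceptible, U for unsusceptible and C for control). Points are pools, lines are means with bars of 1 SD (n = 3), and the dotted line is the median probe at 7.39; Drd1 and Drd2 lie higher in every NAc pool than in any VTA pool, and the other probes stay near the dotted line.

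Drd1 and Drd2 differed more between the structures than between behaviour groups, which was not so for Drd3, Drd4 and Drd5. Drd1 was 28.0-fold higher in the NAc than in the VTA and Drd2 was 2.34-fold higher, while Drd5 was 1.12-fold higher (9 against 9 pools). Drd3 and Drd4 did not pass the test. Over the 3 behaviour groups, 3 of the 5 receptor genes passed limma's adjusted p threshold of 0.05, all of them higher in the NAc, where 28.0% of all probes passed in either direction and 13.5% passed as higher in the NAc. The median difference of the 5 genes was 0.17 log2 units, against 0.0013 over all probes. With a background of 50 intensity units subtracted, the Drd1 difference was 36.1-fold; the files hold no background or detection value, and the VTA level of Drd1 was not shown to be above background. In bulk tissue, fewer cells of a type and less RNA per cell cannot be told apart.

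Drd1 encodes the D1 receptor, the main dopamine receptor of the direct pathway. Its brighter probe gave 12.83, 12.50 and 12.75 log2 units in the susceptible NAc pools, 12.69, 12.85 and 12.42 in the unsusceptible NAc pools and 12.86, 12.39 and 12.11 in the control NAc pools. In the VTA it gave 8.13, 7.56 and 7.85 in susceptible, 7.81, 7.70 and 8.22 in unsusceptible and 7.78, 7.63 and 7.47 in control pools. Every NAc pool was above every VTA pool, and 11.5% of all probes likewise had structures that did not overlap, in one direction or the other. Within a structure the 3 behaviour groups overlapped. The difference of NAc minus VTA was 4.81 ± 0.10 log2 units (SE, limma adjusted p 4.93e-22). The second Drd1 probe gave 4.42 ± 0.08 (limma adjusted p 7.12e-23), with NAc pools between 11.84 and 12.62 and VTA pools between 7.58 and 8.12. Taken by behaviour group, the brighter probe's difference was 4.85 in susceptible, 4.74 in unsusceptible and 4.83 in control mice, so that the 3 values lay within 1 standard error of each other (0.17 each). By mean level the order was NAc susceptible, unsusceptible and control, then VTA unsusceptible, susceptible and control, and the gap between NAc control and VTA unsusceptible was the single step at which neighbouring groups did not overlap.

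Drd2 encodes the D2 receptor, found on indirect pathway neurons and, as the autoreceptor, on dopamine neurons. Its probe gave 10.70, 10.29 and 10.54 log2 units in susceptible NAc pools, 10.60, 10.62 and 9.95 in unsusceptible NAc pools and 10.53, 10.08 and 10.34 in control NAc pools. In the VTA it gave 9.33, 9.32 and 9.12 in susceptible, 8.98, 9.45 and 8.05 in unsusceptible and 9.35, 9.44 and 9.57 in control pools. All NAc pools, from 9.95 up, lay above all VTA pools, which reached 9.57, and the lowest value, 8.05, belonged to VTA unsusceptible pool 3. For 11.5% of all probes the structures did not overlap, in one direction or the other. The difference of NAc minus VTA was 1.23 ± 0.13 log2 units (SE, 95% interval 0.96 to 1.49, limma adjusted p 1.82e-08). Leaving out the 3 arrays named above gave 1.17 (limma adjusted p 7.47e-11).

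By behaviour group the Drd2 difference of NAc minus VTA was 1.26 in susceptible mice (limma adjusted p 0.000112), 1.56 in unsusceptible mice (8.12e-06) and 0.86 in control mice (0.00534), each with a standard error of 0.22. In each behaviour group 2 of the 5 receptor genes, Drd1 and Drd2, passed limma's threshold. The share of all probes that passed was 18.6% in susceptible, 16.2% in unsusceptible and 19.4% in control mice. Under median scaling of the arrays in place of quantile normalization, the Drd2 difference in control mice was 0.58 and no longer passed (limma adjusted p 0.122). The order of the Drd2 group means was NAc susceptible, unsusceptible and control, then VTA control, susceptible and unsusceptible. Neighbours in that order did not overlap between NAc control and VTA control, nor between VTA control and VTA susceptible. Of all probes, 9.19% did not overlap between VTA susceptible and control pools. The share for NAc against VTA in control pools is not at hand, and in unsusceptible pools it was 28.2%.

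**Figure D2:**
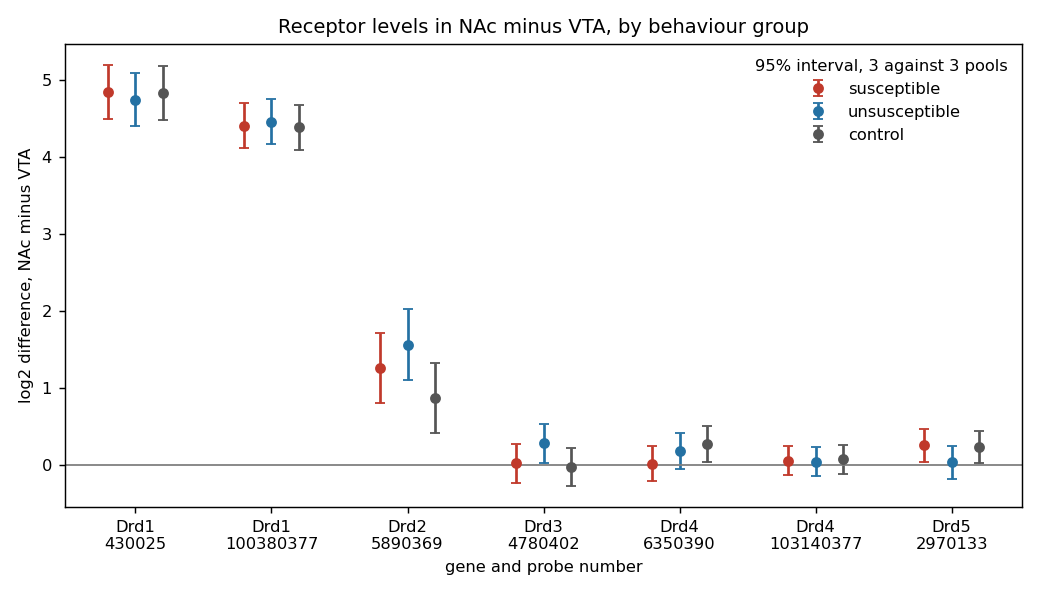
Difference of NAc minus VTA in log2 units (vertical axis) for each receptor probe (horizontal axis), in susceptible, unsusceptible and control mice, with 95% intervals from limma (3 against 3 pools). The Drd1 probes lie between 4.38 and 4.85, Drd2 between 0.86 and 1.56, and the other probes between -0.03 and 0.28.

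Drd5, the other D1-like receptor gene, had values between 7.86 and 8.10 log2 units in the 9 NAc pools and between 7.45 and 8.15 in the 9 VTA pools. The structures overlapped, since the highest value of all was in VTA unsusceptible pool 3. The difference of NAc minus VTA was 0.17 ± 0.06 log2 units (SE, limma adjusted p 0.0341). This call was lost in 9 of the 18 fits that left out 1 array, with limma adjusted p-values up to 0.0968. By behaviour group the difference was 0.25 in susceptible, 0.03 in unsusceptible and 0.23 in control mice, and none of these passed (limma adjusted p 0.106, 0.915 and 0.140).

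Drd3 encodes the D3 receptor, known from the ventral striatum and the islands of Calleja. Its probe was dim, with 6.79 to 7.47 log2 units over the 9 NAc pools and 6.80 to 7.12 over the 9 VTA pools, and a single value, in NAc unsusceptible pool 2, exceeded the median probe level. The difference of NAc minus VTA was 0.09 ± 0.07 (SE, limma adjusted p 0.446). In unsusceptible mice all 3 NAc pools lay above the 3 VTA pools, with a difference of 0.28 ± 0.12 (limma adjusted p 0.147). Groups that did not overlap were found for 28.2% of all probes in that comparison. In susceptible and control mice the difference was 0.02 and -0.03, and the pools overlapped.

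Drd4 encodes the D4 receptor. Its brighter probe gave 7.15 to 7.67 log2 units over the NAc pools and 7.05 to 7.35 over the VTA pools, and its second probe 6.94 to 7.25 over the NAc pools and 6.91 to 7.19 over the VTA pools. The brighter probe differed by 0.15 ± 0.06 between NAc and VTA (SE, limma adjusted p 0.0885) and the second by 0.05 ± 0.05 (0.577). Neither passed the threshold. The brighter probe did pass in 2 of the 18 fits without 1 array: without NAc control pool 1 it was 0.20 (limma adjusted p 0.0153) and without VTA unsusceptible pool 3 it was 0.18 (0.0332). No background was subtracted in the main fit, and whether it was removed before deposit is not given, so that a change of a dim probe may be understated. For Drd3 and Drd4 a level above background was not shown, since no detection p-value is given.

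The behaviour comparisons addressed whether the receptors differ with defeat and with the response to it. No receptor gene passed limma's adjusted p threshold in any of the 8 comparisons between behaviour groups. In the NAc, 0 of 5 genes passed for susceptible minus control, unsusceptible minus control, susceptible minus unsusceptible and defeated (both defeated groups) minus control, and 0 of 5 had an unadjusted limma p under 0.05 in any of these. The shares of all probes that passed in these NAc comparisons were 0.0652%, 0.00225%, 0.00225% and 0.344%, and the shares with such an unadjusted p were 8.23%, 11.5%, 4.41% and 11.6%. In the VTA, 0 of 5 genes passed in the same 4 comparisons, where 0.00225%, 0.00674%, 0% and 0% of all probes passed. At an unadjusted limma p under 0.05 the VTA counts were 0 for susceptible minus control, 1 for unsusceptible minus control (Drd2), 1 for susceptible minus unsusceptible (Drd5) and 1 for defeated minus control (Drd2), and 3.46%, 6.85%, 5.54% and 4.97% of all probes reached it. Comparisons with controls in a structure share the same 3 control pools.

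In the NAc, Drd1 was 0.24 ± 0.17 log2 units higher in susceptible than in control pools by its brighter probe (SE, 95% interval -0.11 to 0.59, limma adjusted p 0.765). The second probe gave 0.21. The values of the unsusceptible pools minus controls were 0.20 and 0.18 by the same probes, and those of susceptible minus unsusceptible pools 0.04 and 0.03. In control pool 3 both Drd1 probes had their lowest NAc value, 12.11 and 11.84, while by the brighter probe the other control pools, at 12.86 and 12.39, lay just outside the 12.42 to 12.85 of the defeated pools, 1 above and 1 below. Without control pool 3 the brighter probe gave 0.07 for susceptible minus control and 0.03 for unsusceptible minus control, and without the 3 arrays that stood apart it gave 0.07 and 0.15. Under median scaling it gave 0.43 and 0.74 (limma adjusted p 0.974 and 0.0697). Median scaling equates only the array medians. It leaves the upper quartiles of unsusceptible pool 3 and control pool 3 apart, at 833.2 and 287.3 before scaling. Median scaling without these arrays was not run. Drd2 in the NAc gave 0.20 ± 0.22 for susceptible minus control (95% interval -0.26 to 0.65) and 0.07 ± 0.22 for unsusceptible minus control (-0.38 to 0.53). Under median scaling these Drd2 values were 0.40 and 0.63 (limma adjusted p 0.974 and 0.0934), so that the size of both receptors' differences depended on the scaling, while the calls did not. Without the 3 arrays the Drd2 values were 0.21 and 0.30.

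For the dimmer receptors in the NAc, Drd4 gave -0.23 ± 0.11 log2 units for susceptible minus control by its brighter probe (limma p 0.0523 before and 0.612 after adjustment) and -0.07 by its second probe. The pool values of the brighter probe were 7.40, 7.25 and 7.15 in susceptible, 7.28, 7.40 and 7.29 in unsusceptible and 7.23, 7.58 and 7.67 in control mice, so that the groups overlapped through control pool 1. Without control pool 3 the difference was -0.14. Drd3 gave 0.21 ± 0.12 for unsusceptible minus control and 0.02 for susceptible minus control, and without control pool 3 these were 0.12 and -0.07. Drd5 gave -0.02 and -0.08 in the same comparisons.

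**Figure D3:**
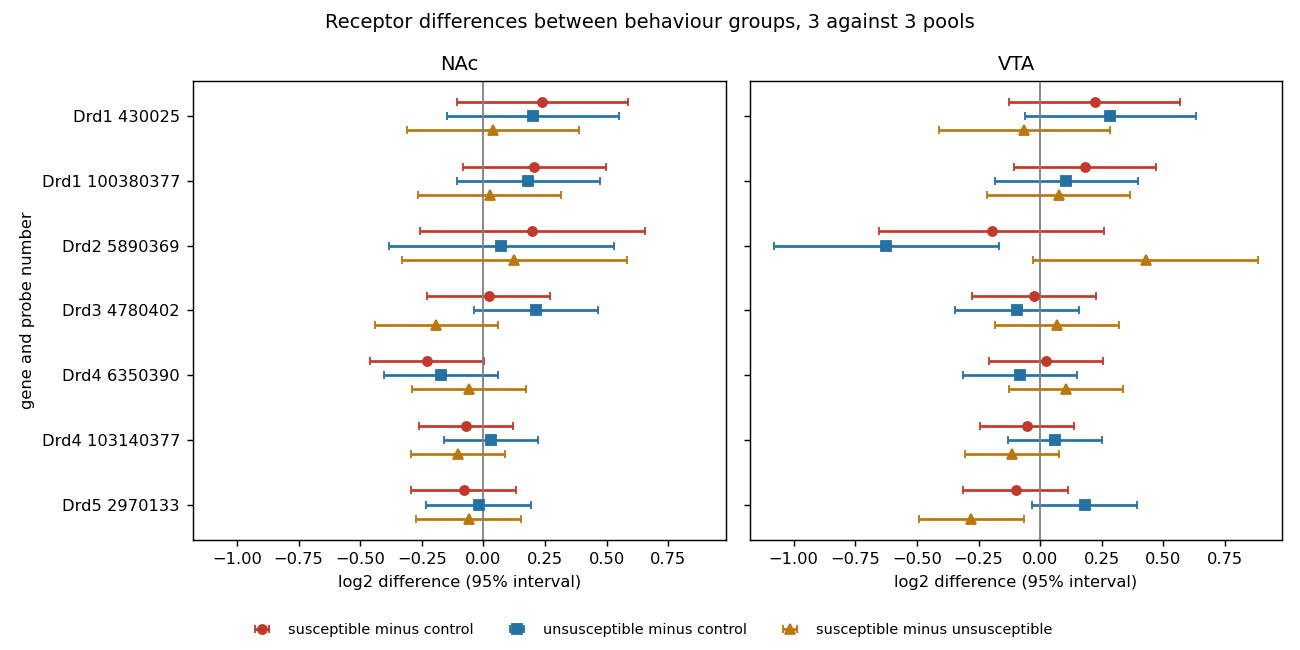
Differences between behaviour groups in log2 units (horizontal axis, with 95% intervals from limma, 3 against 3 pools) for each receptor probe (vertical axis), in the NAc (left) and the VTA (right). Most intervals include 0; those of Drd2 for unsusceptible minus control (-1.08 to -0.17) and of Drd5 for susceptible minus unsusceptible, both in the VTA, do not, and neither passed after adjustment.

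In the VTA the largest receptor difference between behaviour groups was that of Drd2, and it did not pass after adjustment. Drd2 was -0.62 ± 0.22 log2 units in unsusceptible minus control pools (SE, 95% interval -1.08 to -0.17, limma p 0.00941 before and 0.548 after adjustment). The unsusceptible pools spread widely, with 8.98, 9.45 and 8.05 against 9.35, 9.44 and 9.57 in the control pools, and pool 2 lay within the control range. Without unsusceptible pool 3 the difference was -0.24 (limma adjusted p 0.993). Without unsusceptible pool 2 it was -0.93 and passed (limma adjusted p 0.0286). In susceptible pools Drd2 was 9.33, 9.32 and 9.12, all below the 3 control pools, and the difference was -0.20 ± 0.22 (95% interval -0.65 to 0.26, limma adjusted p 1.00). In that comparison 9.19% of all probes did not overlap. For defeated minus control pools it was -0.41 ± 0.19 (limma p 0.0424 before and 0.993 after adjustment), with 5 of the 6 defeated pools below all control pools, and without VTA unsusceptible pool 3 it was -0.22 (adjusted p 1.00).

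The low Drd2 value of VTA unsusceptible pool 3 came with low values of dopamine neuron markers in the same pool. The mean log2 level of 11 dopamine neuron markers was 11.51, 11.45 and 11.62 in susceptible, 11.09, 11.81 and 9.53 in unsusceptible and 11.47, 11.61 and 11.81 in control VTA pools. Pool 3 of the unsusceptible mice was thus 1.57 log2 units below the next lowest VTA pool, and 10 of the 11 markers had their lowest VTA value there. Th, which encodes the rate-limiting enzyme of dopamine synthesis, was 9.52 in that pool and between 11.97 and 13.00 in the other VTA pools. Slc6a3, the dopamine transporter gene, was 11.13 there and between 13.58 and 14.39 in the others. All 5 oligodendrocyte markers and both serotonin neuron markers also had their lowest VTA value in that pool, with an oligodendrocyte mean of 12.84 against 13.20 to 13.61 in the other VTA pools. Other lists did not all follow. Of 6 astrocyte markers, 3 were lowest and 2 highest there. Of 9 markers of medium spiny neurons in common, 2 were lowest and 3 highest, and no microglia or blood marker was lowest. The share of all probes with their lowest VTA value in that pool was not counted. Mog and Mobp, genes of myelin, fell in unsusceptible minus control VTA pools by 0.66 and 0.75 log2 units (limma adjusted p 0.0259 each), where 0.00674% of all probes passed. Without unsusceptible pool 3 they were at -0.56 and -0.58 and did not pass (limma adjusted p 0.285 each). Their part in the Drd2 values was not tested.

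Drd2 and the dopamine neuron markers were also set against each other over the 9 VTA pools. Pearson's r was 0.973 (exact permutation p 0.00142, adjusted over 12 relations 0.0171) and Spearman's rho 0.80 (exact permutation p 0.0138, adjusted 0.0830). Without unsusceptible pools 1 and 3, the pools farthest from the median of the marker level, r was 0.534 (exact permutation p 0.224), so that the relation rests on those 2 pools. Against the median scanner intensity of the array, r was 0.248. Drd1 in the VTA had an r of 0.296 with the 18 medium spiny neuron markers, and Drd2 an r of -0.621, with exact permutation p-values of 0.437 and 0.0703.

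**Figure D4:**
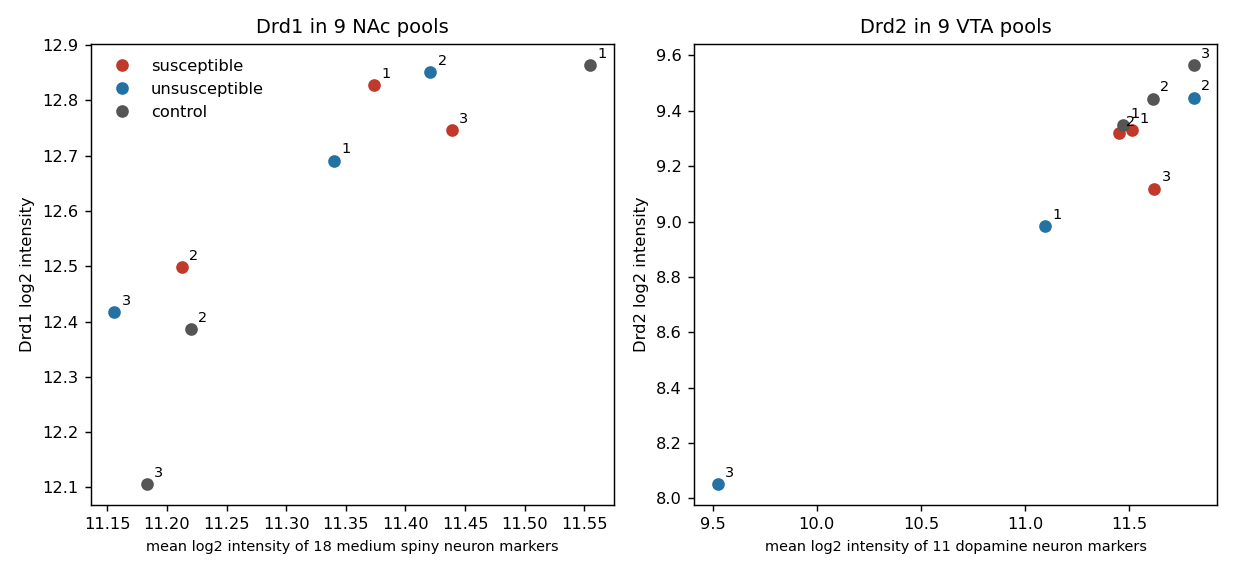
Left, log2 intensity of Drd1 (vertical axis) against the mean log2 intensity of 18 medium spiny neuron markers (horizontal axis) in the 9 NAc pools; right, Drd2 against the mean of 11 dopamine neuron markers in the 9 VTA pools. Points are pools with their number, coloured by behaviour group; in the VTA, unsusceptible pool 3 lies far below the rest on both axes.

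In the NAc, Drd1 was higher in the pools with more marker RNA of medium spiny neurons. Over the 9 NAc pools, r was 0.868 (exact permutation p 0.00347, adjusted over the same 12 relations 0.0208) and rho 0.867 (exact permutation p 0.00451), which missed the threshold after adjustment (0.0541). Without unsusceptible pool 3 and control pool 1, the pools farthest from the median, r was 0.902, and with group means subtracted it was 0.950. Drd2 gave an r of 0.759 with the same markers (exact permutation p 0.0182, adjusted 0.0729; rho 0.65) and 0.718 with Drd1 (0.0289, adjusted 0.0867; rho 0.683), neither of which passed after adjustment. Drd3 gave 0.175. The marker mean did not separate the behaviour groups, with 11.34 ± 0.12 in susceptible, 11.31 ± 0.14 in unsusceptible and 11.32 ± 0.20 log2 units in control NAc pools (SD, n = 3 each). Against the median scanner intensity, r was -0.082 for Drd1 and -0.508 for Drd2, and the value for Drd2 was 0.464 without NAc unsusceptible pool 3 and control pool 1.

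Of 5 blood markers, 3 in the NAc passed limma's threshold as higher in susceptible than in control pools, where 0.0652% of all probes passed in either direction. The mean of the 5 was 11.38 to 11.78 log2 units in susceptible, 10.75 to 11.16 in unsusceptible and 10.30 to 10.60 in control NAc pools. In the VTA 0 of 5 passed for susceptible minus control, where 0.00225% of all probes did. All 5 had an unadjusted limma p under 0.05, against 3.46% of all probes, and their median difference was 1.16 log2 units. The mean in the VTA was 11.56 to 12.09 in susceptible, 10.86 to 11.45 in unsusceptible and 10.53 to 11.22 in control pools. The mean of 4 cortical excitatory neuron markers ran from 8.52 to 9.87 over the NAc pools. Their part in the receptor values was not tested.

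The Drd5 probe gave 7.77, 7.79 and 7.45 log2 units in susceptible, 7.73, 7.97 and 8.15 in unsusceptible and 7.77, 7.76 and 7.78 in control VTA pools. The control pools were nearly equal, and the susceptible and unsusceptible pools overlapped. Susceptible minus unsusceptible was -0.28 ± 0.10 (SE, limma p 0.0120 before and 0.895 after adjustment), susceptible minus control -0.10 and unsusceptible minus control 0.18. Without unsusceptible pool 3, susceptible minus unsusceptible was -0.18 (limma adjusted p 1.00) and unsusceptible minus control 0.08. Drd1 in the VTA gave 0.22 ± 0.17 for susceptible minus control and 0.28 ± 0.17 for unsusceptible minus control by its brighter probe, and 0.18 and 0.11 by its second. Without unsusceptible pool 3 the brighter probe gave 0.13 for unsusceptible minus control (limma adjusted p 0.993) and the second -0.0014. Drd3 and both Drd4 probes gave differences between -0.11 and 0.10 in the VTA comparisons between behaviour groups.

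The change with behaviour was compared between the structures by the interaction terms of the same model. For the susceptible minus control change, 0 of 5 receptor genes passed limma's threshold and 0 had an unadjusted p under 0.05, with 0% of all probes passing and 6.35% at the unadjusted level. For the unsusceptible minus control change, 0 of 5 passed and 1, Drd2, had an unadjusted p under 0.05, again with 0% of all probes passing and 10.6% at the unadjusted level. The Drd2 change was 0.70 ± 0.31 log2 units more positive in the NAc than in the VTA for unsusceptible mice (SE, limma p 0.0354 before and 0.437 after adjustment), and 0.31 without VTA unsusceptible pool 3. Under median scaling, which leaves the upper quartiles of NAc unsusceptible pool 3 and control pool 3 apart, it was 1.37 (limma adjusted p 0.0786). For susceptible mice it was 0.39 ± 0.31 (adjusted p 0.897).

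The balance of Drd1 and Drd2 within a pool was compared as the difference of their log2 values. Only the brighter Drd1 probe was used, and its VTA level was not shown to be above background. In the NAc this difference moved by 0.04 log2 units for susceptible minus control, 0.13 for unsusceptible minus control and -0.09 for susceptible minus unsusceptible (exact permutation p 1, 0.7 and 0.7, two-sided). In the VTA it moved by 0.42, 0.91 and -0.49 in the same order (exact permutation p 0.2, 0.2 and 0.4). With 3 against 3 pools this test cannot go below 0.1. For defeated minus control pools it moved by 0.08 in the NAc and 0.66 in the VTA (exact permutation p 0.583 and 0.179, adjusted over the 8 comparisons 0.8 and 0.533). No shift of the balance passed the test. Without VTA unsusceptible pool 3, the VTA value was 0.37 for unsusceptible minus control and 0.05 for susceptible minus unsusceptible pools.

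Other genes of dopamine signalling were read from 5 lists of the receptor's partners. Between the structures many of them differed, in both directions, where 28.0% of all probes passed, 13.5% as higher in the NAc. Of 14 measured G protein subunits, 7 were higher in the NAc than in the VTA, 4 lower and 3 did not pass limma's threshold (median 0.17 log2 units, all probes 0.0013). Gng7 and Gnal, which form the olfactory-type G protein through which the D1 receptor raises cyclic AMP in the striatum, were higher by 3.18 and 1.89. Gnas, the stimulatory subunit used elsewhere, and Gng2 were lower, at -0.90 and -0.75. Of 24 measured cyclic AMP and calcium effectors, 14 were higher, 5 lower and 5 did not pass (median 0.43). Ppp1r1b, which encodes the phosphoprotein DARPP-32, and the phosphodiesterase gene Pde10a were higher by 4.21 and 2.63. The cyclase gene Adcy8 (-2.07) and Prkaca (-0.54), a catalytic subunit of protein kinase A, were lower.

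Of 19 measured genes of desensitization and receptor partners, 9 were higher in the NAc, 5 lower and 5 did not pass limma's threshold (median 0.20 log2 units), against 28.0% of all probes passing in either direction. Rgs9, a regulator that speeds the shut-off of inhibitory G proteins, was higher by 4.08, and Necab2, a calcium-binding protein, by 1.52. Rgs9, Ppp1r1b and Pde10a are also among the markers of medium spiny neurons in common. Hpcal1, a calcium sensor, and Arrb2, which encodes beta-arrestin 2, were lower, at -1.08 and -0.52. Of the 4 Girk channel genes, through which D2-like receptors hyperpolarize cells, Kcnj5 was lower (-0.29) and 3 did not pass. Of 9 measured genes of dopamine supply, 7 were lower in the NAc and 2 did not pass (median -2.95), with Slc6a3 at -6.36 and the vesicular transporter gene Slc18a2 at -5.58.

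**Figure D5:**
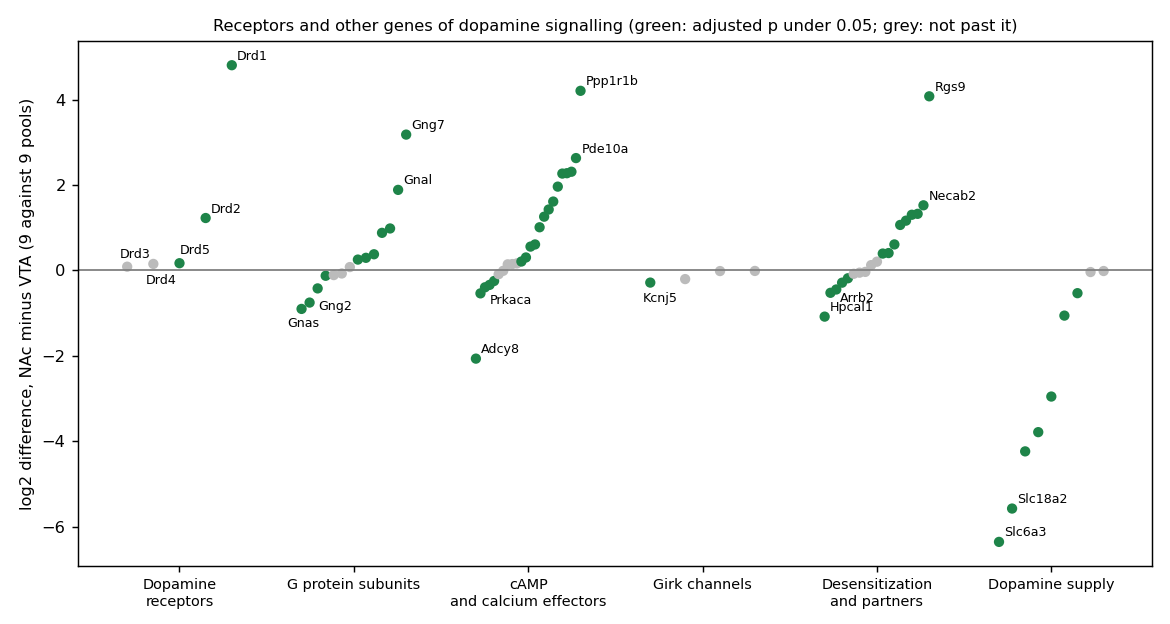
Log2 difference of NAc minus VTA (vertical axis, 9 against 9 pools) for the 5 receptor genes and the measured genes of 5 signalling lists (horizontal axis), 1 point per gene by its brightest probe, sorted within a list. Green points passed limma's adjusted p threshold of 0.05 and grey points did not; Drd1 at 4.81 lies near Ppp1r1b at 4.21 and Rgs9 at 4.08, and the genes of dopamine supply run down to Slc6a3 at -6.36.

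Between behaviour groups, no gene of these 5 lists passed limma's threshold in any comparison within a structure. In the VTA, unsusceptible minus control, 6 of 9 dopamine supply genes had an unadjusted limma p under 0.05 (median -0.98), as did 5 of 24 effectors, 5 of 19 partners, 1 of 14 G protein subunits and 0 of 4 Girk channels, where 6.85% of all probes did. Without unsusceptible pool 3, in which dopamine neuron markers were low, the unadjusted counts were 0 of 9 supply genes (median -0.12), 1 of 24 effectors, 0 of 19 partners, 2 of 14 G protein subunits and 0 of 4 Girk channels, where 5.03% of all probes did. Th, Slc6a3, Slc18a2 and Ddc are in both the supply list and the dopamine neuron markers. The fall in the supply count is thus no separate result from the low markers. In the VTA, susceptible minus control, the unadjusted count was 0 in each of the 5 lists. For susceptible minus unsusceptible VTA pools the counts were 5 of 9 supply genes (median 0.74), 1 of 24 effectors and 4 of 19 partners. They were 0 of 14 G protein subunits and 0 of 4 Girk channels, where 5.54% of all probes had such a p. That comparison was not read for the lists without unsusceptible pool 3. In the NAc, susceptible minus control, the counts were 2 of 14 G protein subunits, 1 of 24 effectors, 0 of 4 Girk channels, 1 of 19 partners and 1 of 9 supply genes, where 8.23% of all probes had such a p. For unsusceptible minus control NAc pools they were 2 of 14, 2 of 24, 0 of 4, 2 of 19 and 1 of 9 in the same order, where 11.5% did.

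Each receptor was also set against the other named genes (11596 or 11597), those brighter than the median probe, to find the most similar patterns over the 18 arrays. These correlations are descriptions, since all arrays share the split into 2 structures. For Drd1 the nearest genes were Dclk3 (r 0.997), Lzts3 (0.997) and Ppp1r9a (0.996), and 1065 genes had an r over 0.9. For Drd2 they were Tdrp (0.968), Sbk1 (0.967) and the receptor kinase gene Kit (0.953), and 71 genes had an r over 0.9. No gene reached 0.9 with Drd3, Drd4 or Drd5, whose nearest genes were Qtrt1 (0.759), Zfp316 (0.835) and the calcium channel gene Cacna1c (0.834).

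With the mean of each structure subtracted, the nearest genes were those that went most with a receptor from pool to pool. They are the highest of 11596 or 11597 values of r and are descriptions too. For Drd2, VTA unsusceptible pool 3 was at 8.05 log2 units, against 8.98 to 9.57 in the other VTA pools, and r without that pool was not computed. Drd1 was nearest to Phyhip (r 0.867), Necab2 (0.865) and Mknk2 (0.845). Drd2 was nearest to the phosphodiesterase gene Pde2a (0.925), the mitochondrial citrate carrier gene Slc25a1 (0.906) and Tdrp (0.890). Drd3 was nearest to Pcgf6 (0.802), Drd4 to Pts (0.827) and Drd5 to Cacna1c (0.810).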

How the data were processed

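Total RNA of 18 tissue pools was amplified linearly and labelled with biotin, per the labels' protocols, and each pool was read on 1 one-colour array. The deposited tables give each probe 1 linear intensity (61.9 to 73427.2) and neither a background value nor a detection p-value. How the scanner values were obtained is not given in the sources at hand. The authors' normalized intensity table of the series, with 3949 missing values, served as an alternative, and the submitters' processing notes name affy.

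Of 44547 probes, 42 were empty and 44505 were tested. Log2 intensities were quantile normalized over the arrays. A mean per group was fitted over 18 arrays with limma 3.58.1 (R 4.3.3) with an intensity trend, 12 residual and 11.7 prior degrees of freedom. Two-sided p-values were adjusted by Benjamini-Hochberg over every probe tested in a comparison, with a threshold of 0.05. The code was tested on simulated data. The number of arrays limits the precision, and p-values measure the spread between pools, each of 4 mice. The table of the platform gave 1 gene for 28482 probes, several for 11 and none for 16012.

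A gene was led by its brightest probe. Named were all receptor probes, the 3 genes most like each receptor, and from each signalling list up to 2 genes passing in each direction between the structures. The members and lists were chosen with earlier results of these data known. Correlations over pools and the Drd1 minus Drd2 difference used exact permutation tests (scipy 1.17.1). Replicate numbers were not used as pairs in the main fit, since the labels do not say whether the NAc and VTA pools of a number share mice. Alternatives were median scaling, a background of 50 subtracted with a floor of 10, the authors' table, bright probes alone, no intensity trend, array weights, a replicate block, 1 structure fitted alone, each array left out, and, chosen after seeing the data, the 3 arrays that stood apart left out and, for the lists, VTA unsusceptible pool 3 left out.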

Additional observations from a re-analysis of the deposited data

How the results depend on the processing

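Of 372 repeats of the counts of receptor genes past the threshold, under 28 alternatives, 370 stayed within 1.5 times the main count. This share says little of robustness, since most main counts were 0. Many repeats, also of a probe's difference, left out an array that the comparison did not use, so that the difference itself could not change. For NAc minus VTA in control pools the count was 1 under median scaling, against 2 in the main setting, since Drd2 no longer passed. For VTA unsusceptible minus control the count without 1 replicate ran from 0 to 1, and the call of Drd2 came without unsusceptible replicate 2. Without 1 replicate the count for NAc minus VTA over the 3 behaviour groups ran from 2 to 4, as Drd5 was lost in 9 fits and Drd4 gained in 2. Of 2562 repeats of a probe's difference, 10 lost and 4 gained a call, and 114 uncalled differences changed sign. Of 78 repeats of the Drd1 minus Drd2 comparison, 5 changed sign; the exact test cannot pass with 3 against 3 pools. Under median scaling, Drd2 against the medium spiny markers in the NAc rose to an r of 0.892 (exact permutation, adjusted p 0.00437) and Drd1 against Drd2 to 0.939 (0.000909), both past the threshold, and the cause was not tested. That scaling leaves the upper quartiles of NAc unsusceptible pool 3 and control pool 3 apart, at 833.2 and 287.3 before scaling. With the replicate block the counts were 3 for NAc minus VTA over the 3 behaviour groups and 0 for every comparison between behaviour groups. After group means were subtracted, 9 of 45 correlations between same-numbered samples were over 0.1, the highest at 0.198. Among the arrays of the other groups, 13 of 18 samples correlated best with an array of their own number. Each other group had 3 arrays, of which 1 bore the sample's own number. Pairs of different number were not counted at that level, and what a number shares was not tested. Depth on arrays is signal over background: Drd3 and Drd4 lay near or below the median probe, where changes may be understated.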

Other observations

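The genes next to each receptor gene in the mouse reference (GRCm38.p6) were read where the arrays measured them. Beside Drd1, the homeobox gene Msx2 differed by -0.10 ± 0.05 log2 units and the mitochondrial carrier gene Sfxn1 by -0.04 ± 0.05 between NAc and VTA (SE, limma adjusted p 0.137 and 0.601), where Drd1 differed by 4.81. Beside Drd2, Gm4894 differed by 0.03 and the kinase gene Ankk1 by -0.06 (limma adjusted p 0.743 and 0.619), where Drd2 differed by 1.23. Beside Drd4, which did not pass, both neighbours were lower in the NAc: Sct, the gene of the hormone secretin, by -0.74 ± 0.06 (limma adjusted p 5.39e-11) and the transcription factor gene Deaf1 by -0.20 ± 0.07 (0.0400). Beside Drd5, Slc2a9 differed by 0.04 (limma adjusted p 0.694), at 7.43 in the NAc and 7.39 in the VTA, near the median probe.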
